A study of Mus musculus with 56 samples.

Results

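The genes described here are 37 potassium channel genes of neurons: 30 encode pore-forming subunits and 7 encode accessory subunits. They were chosen by name, as a list, and not by any measured value. Of 18194, 18820 and 22180 genes with a probe set of their own on the 3 array types used, 35, 37 and 36 were members. RNA was measured on 56 Affymetrix arrays of cultured cortical neurons of C57BL6 mouse embryos, taken at embryonic day 13 to 15 and grown for 7 days before drug or vehicle was given for 24 or 72 h. Which of the 2 durations applies to a group is given only for the 24 h arrays. Topotecan and irinotecan, inhibitors of topoisomerase I, ICRF-193, an inhibitor of topoisomerase II, and short hairpin RNAs (shRNAs) against Top1 and Top2b were compared with controls to see which genes respond when these DNA-untwisting enzymes are blocked or depleted.

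The 12 arrays read from the 3' end of transcripts held topotecan at 300 nM and its vehicle, and ICRF-193 at 3 µM and its own vehicle, with 3 arrays in each group. The 10 earlier gene-level arrays, whose probes lie along the whole gene, held single arrays of topotecan at 3, 30, 150, 500 and 1000 nM, 2 arrays at 300 nM and 3 of vehicle. On the 34 later gene-level arrays, 6 of topotecan at 1 µM stood against 6 of vehicle. Irinotecan at 10 µM (3 arrays), topotecan for 24 h (1 array, dose not given in its title) and the same followed by washout (1 array) shared 2 vehicle arrays. The lentiviral shRNAs (control, Top1 and Top2b, 3 arrays each), DRB at 100 µM (1 array and 1 vehicle), and the oxidants (100 µM of hydrogen peroxide or 10 µM of paraquat, 1 array each with 2 vehicles in common) completed the set. Nothing states that replicate arrays came from separate cultures, so the p-values take in no more than array-to-array spread, and the number of arrays limits the precision.

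Potassium channels let potassium leave the cell and so set the resting potential, the shape of the action potential and the rate of firing. Voltage-gated pores are built from Kv subunits: Kv1 channels sit mainly on axons, Kv3 channels allow fast firing, Kv4 channels carry the A-type current of dendrites, and Kv7 channels carry the M-current that restrains repetitive firing. Calcium-activated BK and SK channels and sodium-activated channels couple firing to ion entry, while two-pore-domain (K2P) channels carry leak current; Kv beta subunits, the KChIP proteins of Kv4 channels and the BK beta subunit tune the pores they bind.

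The members span a wide range of annotated lengths, from 1.97 kb (Kcna3) to 1140 kb (Kcnip4), and 18 exceed 100 kb. Promoter windows, 250 bases before to 50 after the start, were found for 29 of 37 members (47 windows; RefSeq, GRCm38.p6). The following 120 bases upstream of the start are shown for a pair of long members that fell with both topotecan (1 µM) and irinotecan and for a pair of short members that were called lower with neither, 5′ to 3′ in the direction of the gene, with capitals marking a GC box (GGGCGG, or CCGCCC on the other strand).
Kcnma1: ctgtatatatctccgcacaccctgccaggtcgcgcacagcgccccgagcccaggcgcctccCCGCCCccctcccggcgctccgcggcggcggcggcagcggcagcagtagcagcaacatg
Kcnd2: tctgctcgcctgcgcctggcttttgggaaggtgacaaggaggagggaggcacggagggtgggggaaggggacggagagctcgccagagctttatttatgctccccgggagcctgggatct
Kcna6: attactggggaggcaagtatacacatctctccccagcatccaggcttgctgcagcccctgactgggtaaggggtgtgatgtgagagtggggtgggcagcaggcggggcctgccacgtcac
Kcna3: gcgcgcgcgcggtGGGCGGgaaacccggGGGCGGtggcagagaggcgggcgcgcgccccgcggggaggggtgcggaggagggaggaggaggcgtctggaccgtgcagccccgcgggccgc
These lie at chr14:24004206-24004325 (minus strand, Kcnma1), chr6:21215226-21215345 (plus, Kcnd2), chr6:126740675-126740794 (minus, Kcna6) and chr3:107036042-107036161 (plus, Kcna3). A GC box on either strand was in 46.8% of the 47 member windows and in 35.7% of all 32851 windows. It was in 10 of the 28 windows of members over 100 kb and in 12 of the 19 windows of shorter ones. TATAAA (or TTTATA) was in 1 member window, against 13.6% of all windows, and the cyclic AMP response element TGACGTCA, a palindrome, in 0 against 1.79%. The median GC content of the windows was 57.8% for members over 100 kb, 64.3% for shorter members and 52.7% for all windows. These matches are letters in a window and show no binding.

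Genes with a mean log2 intensity under a limit of 7.04 (3' arrays), 6.02 (earlier) or 5.01 (later) were left out as dim; the mean was taken over all arrays of a type. This kept 30, 34 and 35 members. Kcna5, a Kv1 pore subunit, was dim on every type. Kcna3, Kcnh5, Kcnh7 and Kcnn3 were dim on the 3' arrays and Kcnmb4 and Kcnn1 on the earlier ones. Kcnb2 and Kcnk9 had no probe set of their own on the 3' arrays, nor Kcnk3 on the later ones. Each list below was described by its mean log2 value per array: the 10 general neuron markers had 11.93 to 12.48 in the vehicles of topotecan at 300 nM and 9.75 to 10.18 in those of 1 µM, so neuronal RNA was present as labelled. Markers of astrocytes (11.44 to 11.68 and 8.68 to 8.84) and of fibroblasts and mural cells (10.21 to 10.93 and 8.00 to 8.26) lay above the limits too. In such bulk samples fewer cells of a type and less RNA per cell cannot be told apart. Deposited intensities differed in level between sets of arrays within a type (571 to 698.3 on the 3' arrays, 137.8 to 211 on the later ones, as array means), and groups were compared only within an experiment.

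With topotecan at 300 nM, 8 of 30 members fell and 0 rose, where 3.1% of all genes tested were called lower and 1.3% higher (limma, Benjamini-Hochberg adjusted p under 0.05). All 8 were among the 14 members over 100 kb; 18.5% of all genes over 100 kb and 0.346% of shorter genes were called lower. The 3 largest falls were those of Kcnip4, Kcnq5 and Kcnma1. Kcnip4, a calcium-binding subunit of Kv4 channels, read 6.27, 6.09 and 5.79 (log2 intensity) with topotecan and 8.99, 9.55 and 9.32 with vehicle. The groups were far apart, and the change was -3.24 ± 0.19 (SE, adjusted p = 0.00145, limma); as the treated mean of 6.05 is under the limit for dim genes, no fold is given. Kcnq5, a pore subunit of the M-current, read 8.26, 7.99 and 7.37 against 9.80, 10.59 and 10.55. It fell 5.42-fold (-2.44 ± 0.29, adjusted p = 0.0083, limma), with no overlap between groups. Kcnma1, the pore of BK channels, read 7.93, 7.63 and 7.53 against 9.24, 9.96 and 10.54, which are also separate although the vehicles spread widely. It fell 4.65-fold (-2.22 ± 0.31, adjusted p = 0.0131, limma).

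The other members that fell at 300 nM were Kcnt2, a sodium-activated pore (-1.95), Kcnq3, the partner of Kcnq5 in the M-current (-1.74), Kcnd2, the dendritic A-type pore (-1.53), Kcnn2, an SK pore (-1.49), and Kcnab1, a Kv beta subunit (-0.85). Their adjusted p lay between 0.0193 and 0.0293 (limma), and none of these groups overlapped. In these arrays 29.5% of all genes and 100% of called genes had groups that did not overlap. Both Kv7 members thus fell, and so did 1 of 2 Kv4, 1 of 2 BK, 1 of 2 SK, 1 of 2 sodium-activated, 1 of 2 Kv beta and 1 of 4 KChIP members. No Kv1 (4 tested), Kv3 (3), EAG, ERG and ELK (3) or K2P member (4) was called. Kcnk10 (-1.01, adjusted p = 0.0829, limma), Kcnh1 (-0.86, adjusted p = 0.088) and Kcnc2 (-0.84, adjusted p = 0.0619) had groups that did not overlap but missed the threshold. Kcnk3 had separate groups with a difference of 0.17 (adjusted p = 0.401). The median difference was -1.25 over the 14 members over 100 kb and -0.07 over the 16 shorter ones, beside -0.34 and 0.10 over all genes of those lengths. Of 3 probe sets of Kcnq5, 1 differed by -0.17 and the others by -2.61 and -2.44; another probe set of Kcnip4 differed by -1.09. Astrocyte markers were lower in the same arrays (9.91 to 10.58 against 11.44 to 11.68, 5 of 9 called), while 0 of 10 neuron markers were called; their part in the result was not tested. Without topotecan replicate 2 or vehicle replicate 2 only 2 members were called, without topotecan replicate 3 only 4, and without vehicle replicate 3 only 5. Calls over all genes fell too, from 480 to 112, 90, 158 and 305 in the same order.

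ICRF-193 at 3 µM lowered 10 of 30 members and raised 1, with 10.3% of all genes called lower and 8.29% higher. Kcnip2, another KChIP, read 7.98, 7.76 and 7.92 with ICRF-193 and 9.07, 8.93 and 9.15 with vehicle. It fell 2.23-fold (-1.16 ± 0.07, adjusted p = 0.000165, limma), without overlap; its other 2 probe sets, both under the limit, differed by -0.22 and 0.06. Kcnip4 read 8.38, 8.24 and 8.38 against 9.35, 9.38 and 9.21, and fell 1.97-fold (-0.98 ± 0.06, adjusted p = 0.000118, limma). Kcnq5 read 9.68, 9.63 and 9.49 against 10.43, 10.40 and 10.31, and fell 1.72-fold (-0.78 ± 0.06, adjusted p = 0.000278, limma). In both the groups were separate and the arrays of a group close together. Another probe set of Kcnq5, also above the limit, differed by -0.32 (adjusted p = 0.118 over all probe sets, limma), and the third by -0.84. With ICRF-193 the groups were separate for 39.2% of all genes and 99.9% of called genes. Kcnip1, a further KChIP, was the member called higher, at 8.66, 8.76 and 8.62 against 8.50, 8.54 and 8.35. The groups did not overlap, but the rise was small (0.21 ± 0.06, adjusted p = 0.0462, limma) and was not called when all probe sets were tested (adjusted p = 0.118) or when any 1 of the 6 arrays was left out.

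The remaining falls with ICRF-193 were those of Kcnt2 (-0.63), Kcnh1, an EAG pore (-0.54), Kcnma1 (-0.53), Kcnd2 (-0.38), Kcna1, an axonal Kv1 pore (-0.28), Kcnn2 (-0.19) and Kcna6, also of Kv1 (-0.18), with adjusted p between 0.00113 and 0.0493 (limma). Without the filter on dim genes Kcna1, Kcna6 and Kcnn2 lost their calls (adjusted p between 0.0824 and 0.107), as did Kcnip1, which left 7 members. With the replicate number as a block, since these numbers pair the arrays, 15 members were called, 13 lower and 2 higher, the 11 among them, and 26.5% of all genes, against 18.6% without it. Of the 10 falls, 7 were among the 14 members over 100 kb and 3 among the 16 shorter ones; 23.7% and 7.88% of all genes of those lengths were called lower. Kcnq3 differed by -0.09 (adjusted p = 0.501). Astrocyte markers were lower here too (10.80 to 11.05 against 11.28 to 11.49, 7 of 9 called). Of 9 markers of excitatory neurons 5 were called higher and 2 lower. The part of these markers in the result was not tested. Leaving out ICRF-193 replicate 2 or 3, or vehicle replicate 1 or 2, left 7 calls. Over all genes it left 885 to 1239 calls, against 2031 with all arrays.

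The difference between the 2 drug effects was tested directly, each against its own vehicle. In 6 of 30 members the topotecan effect was the lower and in 1 the higher, where 2.41% and 1.19% of all genes were called. The 6 were Kcnip4 (-2.26 ± 0.21, adjusted p = 0.000476, limma), Kcnma1 (-1.69), Kcnq5 (-1.66), Kcnq3 (-1.66), Kcnn2 (-1.30) and Kcnab1 (-0.68), all over 100 kb. Kcnip2 had the opposite sign (1.08 ± 0.16, adjusted p = 0.00572): it fell with ICRF-193 and differed by -0.08 with topotecan. For Kcnt2 (-1.32, adjusted p = 0.0687) and Kcnd2 (-1.14, adjusted p = 0.0785) the difference of effects was not called. Another probe set of Kcnq5, also above the limit, gave 0.15 (adjusted p = 0.863 over all probe sets, limma), and the third -1.77. Doses and array levels differ between the drugs, and the count moved to 2 without any single ICRF-193 array or its vehicle, to 4 without topotecan replicate 2, to 11 without topotecan replicate 1 and to 12 without topotecan vehicle replicate 1. Calls over all genes moved in the same order, from 393 to between 136 and 160, then to 244, 615 and 1048.

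**Figure D1:**
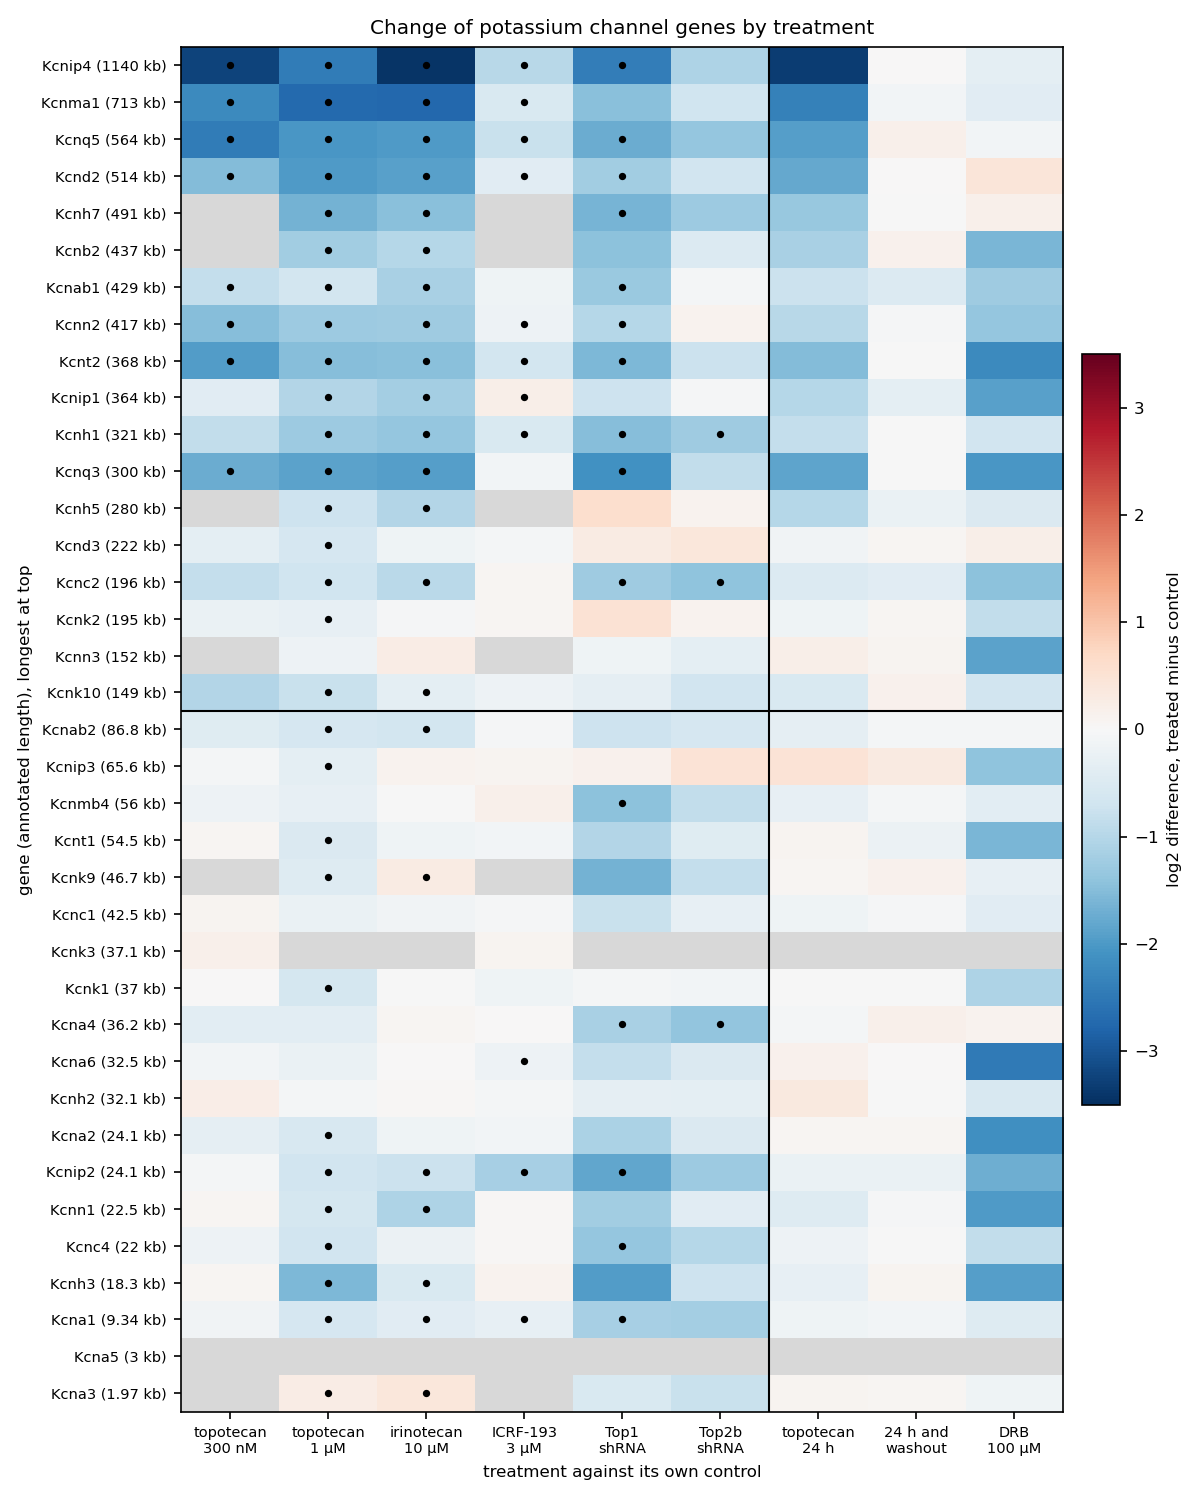
Log2 difference of each member (rows, longest gene at the top) between treatment and its own control (columns); dots mark limma calls at an adjusted p under 0.05, and the 3 columns right of the vertical line have 1 treated array and no test. Grey cells were dim or had no probe set of their own, and the horizontal line marks 100 kb. Kcnip4 with topotecan at 300 nM and Kcnip2 with Top1 shRNA have treated means under the dim limit.

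Topotecan at 1 µM, with 6 arrays a group, lowered 28 of 35 members and raised 1, where 20.8% of all genes were called lower and 18.3% higher. Of 18 members over 100 kb 17 fell (64.4% of all genes of that length), and of 17 shorter members 11 fell (13.2%). Kcnma1 lay between 6.73 and 7.30 (median 6.99) with topotecan and between 9.20 and 9.88 (median 9.78) with vehicle. It fell 6.56-fold (-2.71 ± 0.13, adjusted p = 1.96e-09, limma), and every treated array was below every vehicle; a second, dimmer probe set differed by 0.02. Kcnip4 lay between 5.51 and 6.01 (median 5.83) against 7.85 to 8.46 (median 8.25), a 5.42-fold fall (-2.44 ± 0.11, adjusted p = 1.92e-09, limma). Kcnq5 lay between 6.66 and 7.24 (median 6.99) against 8.55 to 9.47 (median 9.05), a 4.11-fold fall (-2.04 ± 0.13, adjusted p = 3.7e-08, limma). In all 3 the gap between the groups was wider than either group.

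Family by family, the pores fell broadly. Both Kv4 members fell (Kcnd2 -1.99, Kcnd3 -0.59), as did both Kv7 members (Kcnq3 -1.87 beside Kcnq5), the Kv2 pore Kcnb2 (-1.22) and 2 of 3 Kv3 pores (Kcnc2 -0.68, Kcnc4 -0.66). Of the EAG, ERG and ELK pores, 4 of 5 fell: Kcnh7 (-1.66), Kcnh3 (-1.56), Kcnh1 (-1.27) and Kcnh5 (-0.72). Both sodium-activated pores fell (Kcnt2 -1.50, Kcnt1 -0.50), as did 2 of 3 SK pores (Kcnn2 -1.26, Kcnn1 -0.63) and all 4 K2P pores tested (Kcnk10 -0.78, Kcnk1 -0.61, Kcnk9 -0.46, Kcnk2 -0.28). Among accessory subunits all 4 KChIPs fell (Kcnip1 -1.02, Kcnip2 -0.68, Kcnip3 -0.34 and Kcnip4) and both Kv beta subunits (Kcnab1 -0.65, Kcnab2 -0.58). Kv1 pores were mixed: Kcna1 (-0.58) and Kcna2 (-0.56) fell. Kcna3, a Kv1 pore known best from lymphocytes, was the only member called higher, at 7.63 to 7.80 (median 7.76) against 7.28 to 7.57 (median 7.50), a 1.2-fold rise (0.26 ± 0.06, adjusted p = 0.00277, limma) without overlap.

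Kcnh3, at 18.3 kb, fell the most among members up to 100 kb. It lay between 5.87 and 6.72 (median 6.32) against 7.22 to 8.35 (median 7.78), 2.95-fold lower (-1.56 ± 0.19, adjusted p = 2.13e-05, limma), with separate groups. Of the 29 calls, 22 had groups that did not overlap, as did 48.5% of all called genes and 19.1% of all genes; the 7 that overlapped were Kcnip2, Kcnn1, Kcnk1, Kcna1, Kcna2, Kcnt1 and Kcnk9. Kcna4 (-0.38, adjusted p = 0.0523), Kcnmb4 (-0.29, adjusted p = 0.0538), Kcna6 (-0.25, adjusted p = 0.0553), Kcnc1 (-0.24, adjusted p = 0.232), Kcnn3 (-0.17, adjusted p = 0.165) and Kcnh2 (-0.06, adjusted p = 0.659) were not called. Over 35 members the Pearson correlation of the log2 change with log10 length was -0.69, a description across genes that share the same arrays and are not replicates. In the same arrays 8 of 10 neuron markers were called lower (9.32 to 9.75 against 9.75 to 10.18). Of 9 astrocyte markers 7 were called lower and 1 higher (list means 7.46 to 7.60 against 8.68 to 8.84). The part of these markers in the result was not tested. Leaving out any array left 28 to 33 calls, and 4600 to 5893 over all genes, against 5207 with all arrays.

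**Figure D2:**
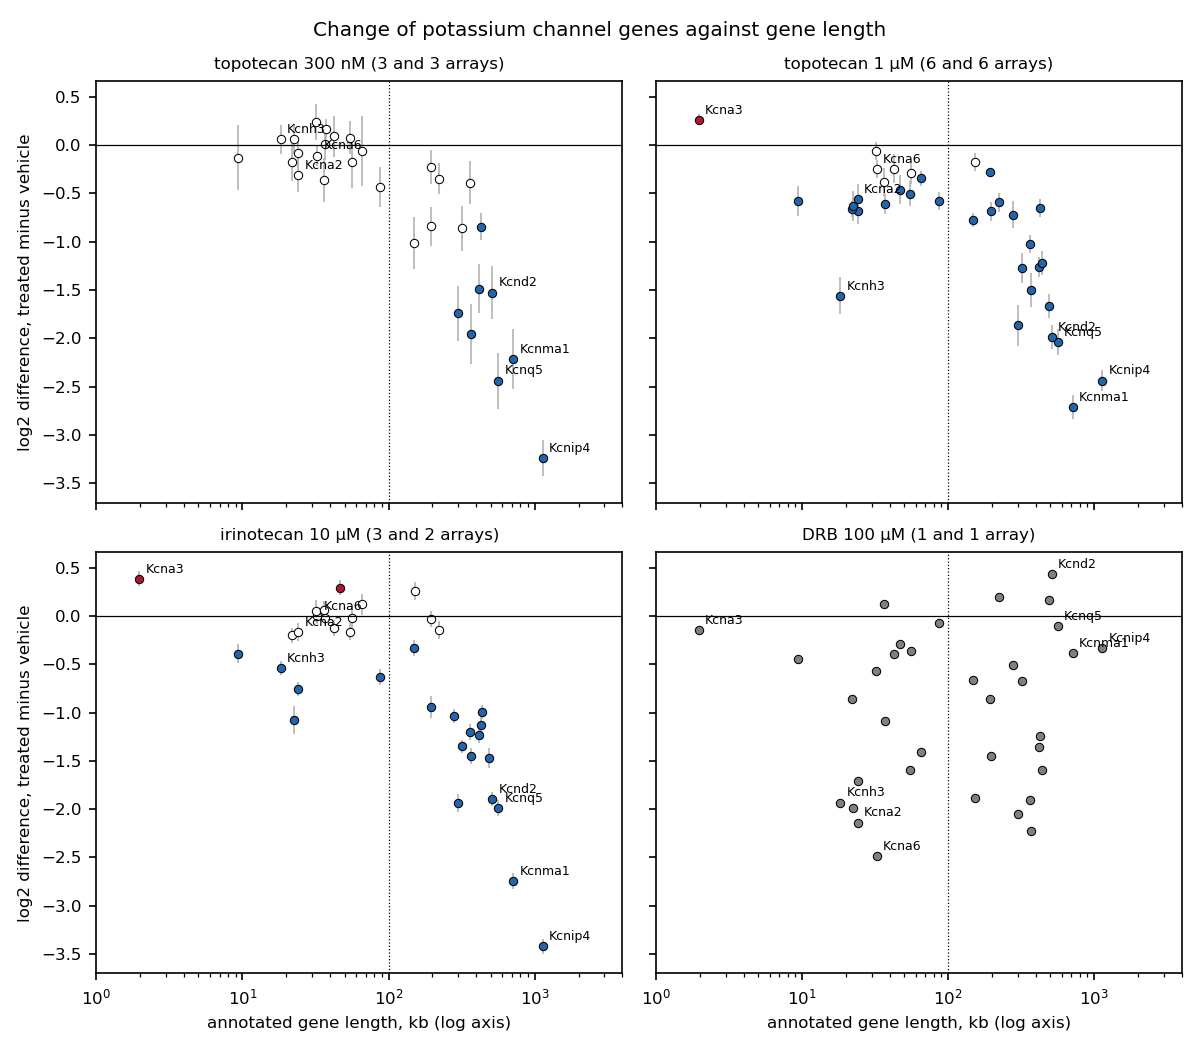
Log2 difference of each member against its annotated length in kb (log axis) for 4 treatments; bars are SE from limma, blue and red points were called lower and higher, white points were not called, and grey points (DRB) have 1 array and no test. With topotecan and irinotecan the longest members lie lowest, down to -3.42 for Kcnip4 with irinotecan, while with DRB Kcnip4 lies at -0.33.

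Irinotecan at 10 µM lowered 20 of 35 members and raised 2, with 11.7% of all genes called lower and 16.5% higher. Kcnip4 read 5.35, 5.29 and 5.18 with irinotecan and 8.67 and 8.72 with vehicle. It fell 10.7-fold (-3.42 ± 0.08, adjusted p = 5.57e-06, limma). Kcnma1 read 7.06, 7.19 and 7.06 against 9.92 and 9.77, a 6.71-fold fall (-2.75 ± 0.09, adjusted p = 1.55e-05, limma). Kcnq5 read 7.20, 7.30 and 7.12 against 9.21 and 9.18, a 3.96-fold fall (-1.99 ± 0.08, adjusted p = 2e-05, limma). Each of these groups was tight and the groups lay far apart.

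Kcnq3 (-1.94), Kcnd2 (-1.89), Kcnh7 (-1.47), Kcnt2 (-1.45), Kcnh1 (-1.35), Kcnn2 (-1.23), Kcnip1 (-1.20), Kcnab1 (-1.13), Kcnh5 (-1.04), Kcnb2 (-0.99), Kcnc2 (-0.95) and Kcnk10 (-0.33) were the other long members that fell. That made 15 of 18 over 100 kb (48.2% of all such genes). Only 5 of 17 shorter members fell (5.21% of all such genes): Kcnn1 (-1.08), Kcnip2 (-0.76), Kcnab2 (-0.63), Kcnh3 (-0.54) and Kcna1 (-0.39). Kcna3 rose, at 8.10, 8.01 and 8.04 against 7.61 and 7.72 (0.38 ± 0.08, adjusted p = 0.0112, limma). Kcnk9, an acid-sensitive K2P pore, also rose, at 10.23, 10.30 and 10.27 against 10.04 and 9.91 (0.29 ± 0.08, adjusted p = 0.0299, limma). Both rises had separate groups, as did 57.1% of all genes and 100% of called genes, but were under 1.5-fold. The call of Kcnk9 was lost without the filter on dim genes (adjusted p = 0.0913) and without irinotecan replicate 2 or 3 or either vehicle (0.0623 to 0.169), and that of Kcna3 without vehicle replicate 1 (adjusted p = 0.0833, limma). Doses of the drugs differ and were not compared. Of 9 astrocyte markers 4 were lower (7.14 to 7.31 against 7.61 to 7.90). So were 2 of 10 neuron markers (10.05 to 10.07 against 10.22 to 10.25). Of 9 inhibitory interneuron markers 6 were lower and 2 higher (list means 7.28 to 7.45 against 7.76 to 7.82). Of 9 excitatory neuron markers 2 were lower and 3 higher. The part of these markers in the result was not tested.

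Topotecan for 24 h, on 1 array, put 13 of 35 members at least 1.5-fold lower than the mean of the 2 vehicle arrays and 0 higher; 5.28% of all genes were that much lower and 4.63% higher. With 1 array there is no test and no replicate check. All 13 were among the 18 members over 100 kb (26.5% of all such genes). Kcnip4 read 5.36 against 8.67 and 8.72, Kcnma1 7.48 against 9.92 and 9.77, and Kcnq5 7.25 against 9.21 and 9.18. The differences of these 3 members, the largest, were -3.33, -2.36 and -1.94. The 3 highest were Kcnip3 (0.48), Kcnh2 (0.34) and Kcnn3 (0.20). After washout 0 of 35 members were 1.5-fold lower or higher, where 0.421% and 0.398% of all genes were. Kcnip4 then read 8.71, Kcnma1 9.76 and Kcnq5 9.39, within 0.2 of the mean of the vehicles. The lowest after washout were Kcnab1 (-0.48), Kcnc2 (-0.38) and Kcnip1 (-0.35), and the highest Kcnip3 (0.32), Kcnq5 (0.19) and Kcna4 (0.18). Astrocyte markers read 7.45 at 24 h and 7.49 after washout, both under the 7.61 to 7.90 of the vehicles. The 2 vehicle arrays, which irinotecan shares, differed from each other by a median of 0.08 and at most 0.26 over the members.

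DRB, an inhibitor of transcription elongation, was given on 1 array. Of 35 members 20 were at least 1.5-fold lower and 0 higher, where 37% of all genes were lower and 12.2% higher. The largest falls were those of Kcna6 (5.59 against 8.08 with vehicle), Kcnt2 (6.75 against 8.98) and Kcna2 (6.18 against 8.32), differences of -2.49, -2.23 and -2.14. Both Kv1 pores are short genes. The longest member Kcnip4 (8.86 against 9.19), Kcnma1 (9.70 against 10.08) and Kcnq5 (9.68 against 9.79) did not pass 1.5-fold, and the 3 highest were Kcnd2 (0.44), Kcnd3 (0.20) and Kcnh7 (0.17). The count was 11 of 18 members over 100 kb and 9 of 17 shorter ones (43.5% and 35.9% of all genes). Over the members the Pearson correlation with log10 length was 0.10, again a description. Astrocyte markers read 6.83 with DRB and 8.85 with vehicle and neuron markers 10.37 and 10.59, and their part in the result was not tested. There is no replicate array of DRB or of its vehicle.

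**Figure D3:**
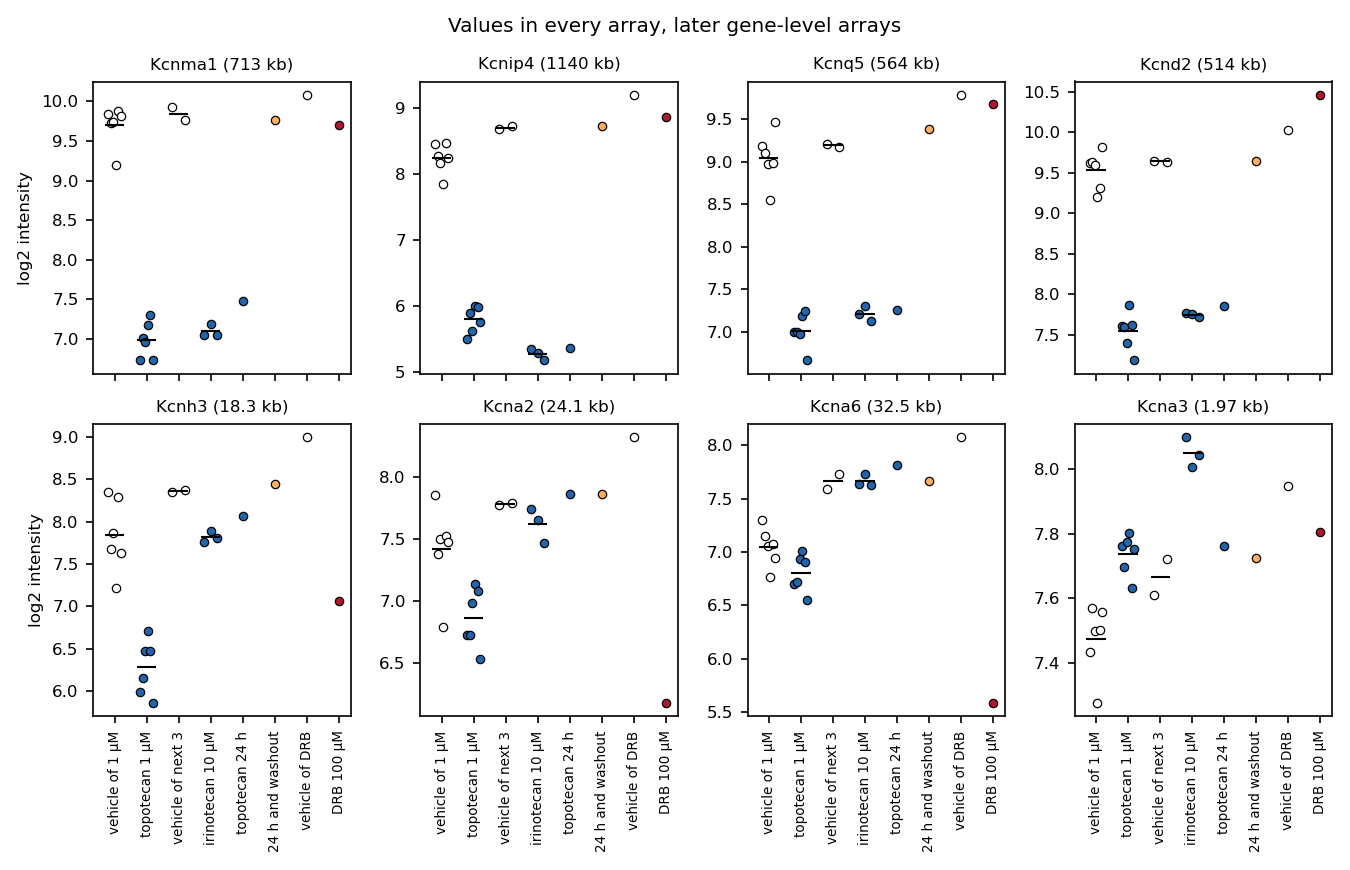
Log2 intensity of 8 members in every later gene-level array of the drug experiments named on the x axis (1 point per array, lines are group means where a group has over 1 array; panels have their own y axes). Kcnma1, Kcnip4, Kcnq5 and Kcnd2 are low with topotecan and irinotecan and near vehicle after washout, while Kcna6 (5.59) and Kcna2 (6.18) are low with DRB.

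Over the topotecan doses the slope of log2 intensity on the rank of the dose was below 0 and called for 6 of 34 members and above 0 for 0, where 1.95% and 1.51% of all genes were called. Kcnip4 read 8.92, 9.05 and 9.50 in the 3 vehicles, then 9.39 at 3 nM, 9.17 at 30 nM, 8.64 at 150 nM, 8.23 and 8.22 at 300 nM, 7.63 at 500 nM and 6.02 at 1000 nM. From 3 nM on each higher dose read lower (slope per dose step -0.41 ± 0.07, adjusted p = 0.018, limma). Kcnma1 read 9.79, 9.79 and 10.30 in the vehicles, then 10.13, 10.17, 9.51, 9.39 and 9.41 (300 nM), 8.91 and 7.77. It stayed near its vehicles up to 30 nM and was under all 3 from 150 nM on (-0.28 ± 0.06, adjusted p = 0.0299, limma). Kcnt2 read 8.52, 8.69 and 8.42 in the vehicles and 8.36, 8.54, 8.20, 8.12 and 8.09 (300 nM), 7.89 and 7.39 with rising dose (-0.15 ± 0.02, adjusted p = 0.0115, limma).

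Kcnip1 (-0.13 ± 0.01, adjusted p = 0.00221, limma), Kcnh3 (-0.12) and Kcnn2 (-0.12) were the other members with a called slope; 5 of the 6 exceed 100 kb and Kcnh3 does not, where 9.22% of all genes over 100 kb and 0.52% of shorter ones were called lower. Kcnq5 (-0.26, adjusted p = 0.0594) and Kcnq3 (-0.20, adjusted p = 0.0572) had steeper slopes that were not called. The 1000 nM array and vehicles 1 and 2 stood apart from the other 7 arrays, with markers of astrocytes (9.47 and up to 10.72 against 8.03 to 8.89) and of proliferating cells (8.31 and up to 9.48 against 6.64 to 6.82) higher. Without these 3 arrays 11 members were called, 9 lower and 2 higher, of which 5 were among the 6, and 9.98% of all genes in either direction, against 3.45% with all arrays. Without the 500 nM array 2 members and 135 genes in all were called, against 390 genes with all arrays. With the slope taken over log10 dose only Kcnip1 was called (adjusted p = 0.0201, limma), beside 1.92% of all genes. The other 5 had adjusted p between 0.0551 and 0.101 (limma). The part of those markers in the slopes was not tested.

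**Figure D4:**
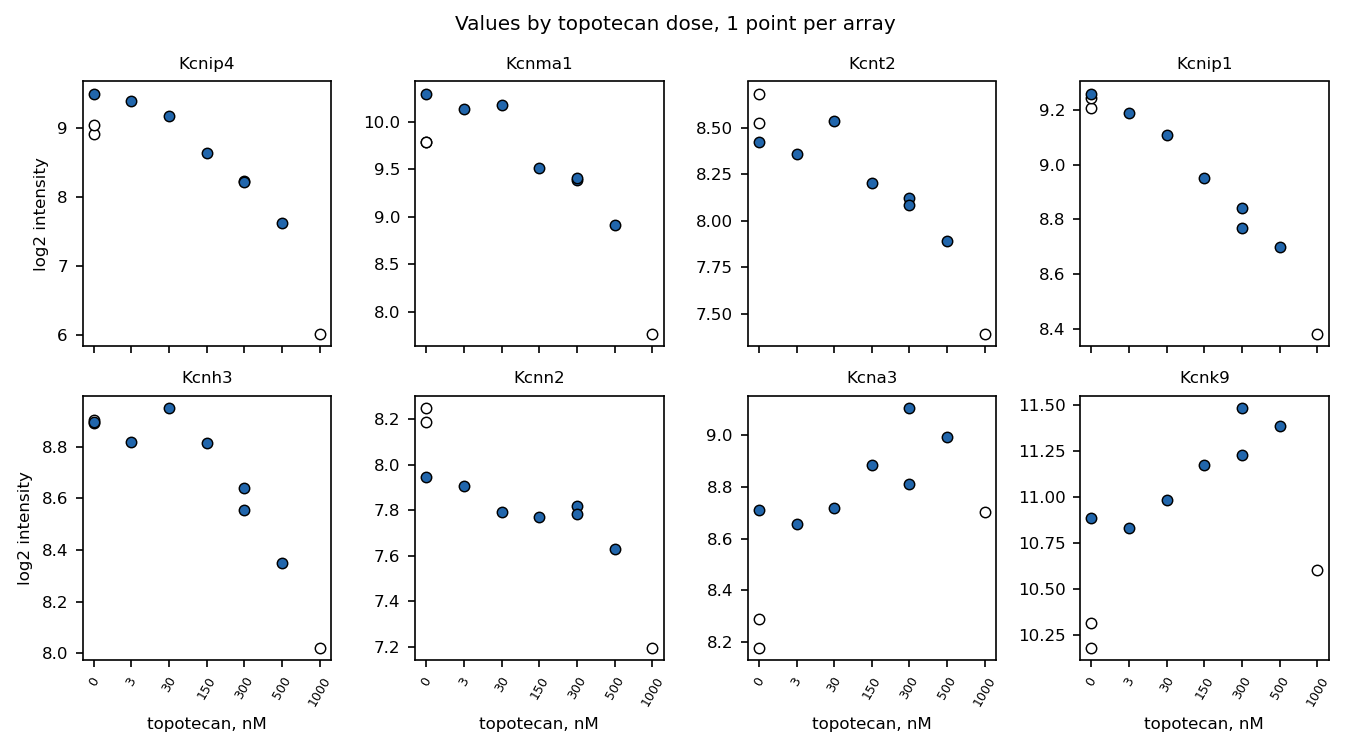
Log2 intensity of the 6 members with a called slope and of Kcna3 and Kcnk9 by topotecan dose in nM (doses evenly spaced, 1 point per array, panels with their own y axes). White points are vehicles 1 and 2 and the 1000 nM array, which stand apart; Kcnip4 falls from 9.39 at 3 nM to 6.02 at 1000 nM.

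In the shRNA experiment the targeted genes were read first. Top1 read 7.62, 8.39 and 8.29 with Top1 shRNA and 8.98, 8.46 and 8.55 with control shRNA, a difference of -0.57 ± 0.26 that did not pass the test (adjusted p = 0.193, limma). Top2b read 8.62, 6.87 and 6.80 with Top2b shRNA and 9.30, 8.39 and 8.17 with control (-1.19 ± 0.47, adjusted p = 0.22, limma). Each library labelled with a target read lower than the control library of its number, but replicate 1 of every group lay on another level of deposited values than replicates 2 and 3.

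In the libraries labelled Top1 shRNA 15 of 35 members were lower and 0 higher, where 5.79% of all genes were called lower and 6.08% higher. Kcnip4 read 6.40, 4.94 and 7.08 against 8.10, 8.81 and 8.79 with control. It fell 5.39-fold (-2.43 ± 0.55, adjusted p = 0.0215, limma), without overlap but with a wide spread among treated arrays. Kcnq3 read 7.70, 6.24 and 8.09 against 8.52, 9.93 and 9.91, a 4.32-fold fall (-2.11 ± 0.60, adjusted p = 0.0477, limma). Kcnip2 read 5.47, 5.15 and 4.08 against 6.60, 6.83 and 6.75 (-1.82 ± 0.32, adjusted p = 0.00857, limma); its treated mean of 4.90 is under the limit, so no fold is given. The groups were separate in all 3, as were those of 30% of all genes and 99.7% of called genes. The others were Kcnq5 (-1.72), Kcnh7 (-1.62), Kcnt2 (-1.58), Kcnh1 (-1.50), Kcnmb4, the neuronal BK beta subunit (-1.43), Kcnc4 (-1.36), Kcnab1 (-1.30), Kcnc2 (-1.25), Kcnd2 (-1.21), Kcna1 (-1.16), Kcna4 (-1.13) and Kcnn2 (-0.99). Without the filter on dim genes 6 of the 15 were called, namely Kcnip2, Kcnq5, Kcnh1, Kcnmb4, Kcnc4 and Kcnc2; the other 9, Kcnip4 and Kcnq3 included, had adjusted p between 0.055 and 0.118 (limma). With the replicate number as a block 18 members and 23.5% of all genes were called, and with the set of arrays as a block 23 and 28.4%, the 15 among them each time, against 11.9% of all genes without a block. Of 18 members over 100 kb 10 fell and of 17 shorter ones 5 (12.5% and 4.6% of all genes). The medians of both length classes were -1.28 and -1.12, and the Pearson correlation with log10 length was -0.15.

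In the libraries labelled Top2b shRNA 3 of 35 members were lower and 0 higher (1.12% and 1.99% of all genes). Kcnc2, a Kv3 pore, read 5.40, 4.80 and 4.88 against 6.31, 6.47 and 6.55, a 2.67-fold fall (-1.42 ± 0.26, adjusted p = 0.0233, limma). Kcna4, an inactivating Kv1 pore, read 6.20, 7.15 and 7.51 against 8.55, 8.16 and 8.31, a 2.62-fold fall (-1.39 ± 0.32, adjusted p = 0.0453, limma). A second probe set of Kcna4, also above the limit, differed the other way, by 0.71 with Top2b shRNA and 0.85 with Top1 shRNA (adjusted p = 0.53 and 0.222 over all probe sets, limma), so the direction of Kcna4 depends on the probe set. Kcnh1 read 6.41, 6.13 and 6.04 against 7.52, 7.48 and 7.34, a 2.39-fold fall (-1.26 ± 0.21, adjusted p = 0.0195, limma). None of the 3 overlapped with control, and neither did 28.1% of all genes and 100% of called genes. With the replicate number as a block 8 members were called, the 3 among them, and 10.2% of all genes in either direction, against 3.11% without it. These numbers also mark the set of arrays, and by deviations replicate 2 matched a control of another number best. With the set of arrays as a block 10 members and 14.9% of all genes were called. Without the filter on dim genes 0 members and 0 genes were called: Kcnc2, Kcna4 and Kcnh1 had adjusted p of 0.0754, 0.125 and 0.0703 (limma). Compared directly, the Top1 and Top2b libraries differed in 0 of 35 members and in 0% of all genes (limma); at an unadjusted p under 0.05, 5 members were lower with Top1 shRNA and 0 higher, and 6.06% of all genes differed.

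Markers of other cells differed with the shRNAs as well. General neuron markers had 8.70 to 9.50 with Top1 shRNA and 9.08 to 9.75 with Top2b shRNA against 10.02 to 10.20 with control (2 and 0 of 10 called lower). Markers of excitatory neurons had 6.61 to 7.48 with Top1 shRNA and 7.31 to 7.62 with Top2b shRNA against 8.27 to 8.51 with control (4 and 1 of 9 called lower). Those of fibroblasts and mural cells had 8.49 to 8.92 and 8.26 to 8.50 against 6.49 to 7.43 (5 and 3 of 7 called higher). Their part in the members' values was not tested. Without control replicate 2 or 3 the Top1 libraries gave 4 calls, without Top1 replicate 2 they gave 3 and without Top1 replicate 3 they gave 6. The Top2b libraries gave 0 without control or Top2b replicate 2 or 3. Over all genes these Top1 calls fell from 1579 to between 450 and 615, and the Top2b calls from 414 to 0. With only replicates 2 and 3, chosen after the values were seen, 28 members were lower and 1 higher with Top1 shRNA (24.5% and 20.1% of all genes) and 12 lower and 1 higher with Top2b shRNA (12.5% and 10.1%); Kcnh5 was the member higher in both. The direct comparison then called 9 members lower with Top1 shRNA and 0 higher (7.75% and 6.43% of all genes), led by Kcnk9 (-1.85), Kcnab1 (-1.61) and Kcnn2 (-1.31). In those arrays Top1 differed by -0.17 (adjusted p = 0.361, limma) and Top2b by -1.44 (adjusted p = 0.00185, limma) under their own shRNAs.

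**Figure D5:**
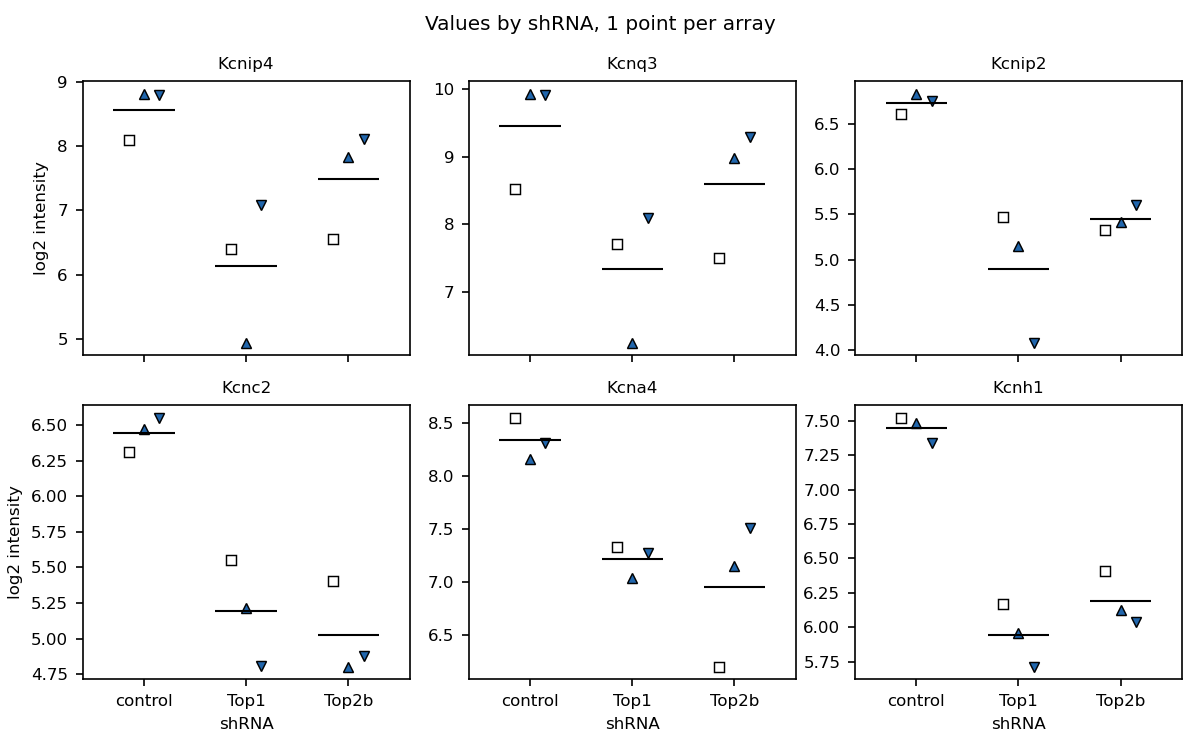
Log2 intensity of the 3 largest called falls with Top1 shRNA (top) and of the 3 called members with Top2b shRNA (bottom) in each array; white squares are replicate 1, upward and downward triangles replicates 2 and 3, and lines are group means. Kcnip4 reads 4.94 to 7.08 with Top1 shRNA and 8.10 to 8.81 with control shRNA.

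The oxidants give values that hang on their 2 vehicle arrays. Over 35 members the mean log2 value was 6.95 in vehicle 1 and 8.24 in vehicle 2, a median gap of 1.30 and at most 3.34 (Kcnh3). Neuron markers differed likewise (9.52 and 10.65), and fibroblast and mural markers the other way (9.09 and 7.88). Against the mean of both, hydrogen peroxide put 1 member 1.5-fold lower and 9 higher (5% and 7.93% of all genes) and paraquat 1 lower and 18 higher (7.15% and 13.7%). Against vehicle 1 alone the counts were 0 lower and 24 higher for hydrogen peroxide and 0 and 28 for paraquat, and against vehicle 2 alone 5 and 1, and 2 and 2. All genes moved with the choice of vehicle too: against vehicle 1 alone 12.5% were lower and 21.5% higher for hydrogen peroxide and 14.4% and 26.8% for paraquat, and against vehicle 2 alone 5.47% and 5.46%, and 2.3% and 5.1%. For hydrogen peroxide the highest members were Kcnt2 (1.62), Kcnq3 (1.06) and Kcnc4 (0.96) and the lowest Kcnd2 (-0.69), Kcnmb4 (-0.15) and Kcnk10 (-0.13). For paraquat they were Kcnip2 (1.59), Kcnn1 (1.43) and Kcnip1 (1.35), and Kcnh5 (-0.61), Kcnk2 (-0.19) and Kcnk10 (-0.15). Most members raised with hydrogen peroxide turned below 0 against vehicle 2 alone: Kcnq3 (-0.54), Kcna1 (-0.52), Kcnt1 (-0.36), Kcna2 (-0.33), Kcnn1 (-0.28), Kcnn2 (-0.16) and Kcna6 (-0.03). Kcnt2 (0.68) and Kcnc4 (0.03) did not. With paraquat some raised members turned too, such as Kcnh3 (-0.73) and Kcnq3 (-0.45), while Kcnip2 (0.45), Kcnn1 (0.50) and Kcnip1 (0.79) stayed above 0.

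Across the 7 tested comparisons with a control, some of which share array types but none of which share control arrays except the 2 shRNA ones, Kcnip4, Kcnn2 and Kcnt2 were lower in 6, and Kcnd2, Kcnh1, Kcnma1 and Kcnq5 in 5. In all 4 topotecan and irinotecan comparisons, the dose slope included, Kcnip4, Kcnma1, Kcnn2 and Kcnt2 were called lower. At 300 nM itself these 4 members lay nearer their vehicles on the earlier arrays than on the 3' arrays. On the earlier arrays Kcnn2 read 7.82 and 7.79 against 7.95 to 8.25, where the 3' arrays gave -1.49. Kcnt2 read 8.12 and 8.09 against 8.42 to 8.69, where the 3' arrays gave -1.95. The array types were not compared by a test. How many genes outside the members were lower as often was not counted, so such recurrence is not shown to be particular to these members. Kcnc1, Kcnh2, Kcnk3 and Kcnn3 were called in none of the comparisons that measured them, and Kcna3 only higher, in 2. Of the 56 other potassium channel genes listed for comparison, 29 were measured above the limit on the later arrays. With topotecan at 1 µM 13 of them fell and 3 rose, led by Kcnj10, the inward rectifier of glia (-1.95), Kcnv1 (-1.39), Kcne1l (-1.16) and Kcnj3, a G protein-gated inward rectifier (-1.04). With irinotecan 11 fell and 1 rose, and with Top1 shRNA 9 and 1. At 300 nM 0 of 15 tested were called. Over all genes 20.8% were called lower and 18.3% higher with topotecan at 1 µM, and 11.7% and 16.5% with irinotecan. With Top1 shRNA the shares were 5.79% and 6.08%, and with topotecan at 300 nM 3.1% and 1.3%. Of 12 accessory genes outside the Kcn names, partners of Kv4 (such as Dpp6), Kv1 (Lgi1), Kv2 (Amigo1) and BK pores, 11 could be tested on the later arrays: 5 of these fell and 1 rose with 1 µM topotecan, and the same numbers held for irinotecan.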

How the data were processed

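Total RNA was measured on 56 arrays. The tools named in the submitters' processing notes are RMA and Expression Console of Affymetrix; their versions, and which arrays were normalized together, are not given in the sources used here. The deposited values are intensity on a linear scale, although the plan took them for log2, so log2 was taken of the deposited values here. Probe sets with 1 gene symbol were used, the brightest per gene over all arrays of a type (82, 38 and 41 member probe sets). A gene was kept if its mean log2 value reached the 40th percentile, which left 10916, 11292 and 13308 genes. Lengths come from RefSeq genes of GRCm38.p6, used for names and lengths.

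Each comparison was a limma 3.58.1 model under R 4.3.3 (lmFit and eBayes, 2-sided, Benjamini-Hochberg over all kept genes, threshold 0.05), each on its own experiment with 1 exception, and checked on simulated data. The exception was the difference of the 2 drug effects, fitted over the 12 3' arrays of both experiments together. Single arrays were described with a fold of 1.5. Groups follow the titles, which some descriptions contradict. Members, lists and tests were chosen with earlier results of these data known. Every called member is named, and array values are given for the 3 largest falls and rises. Pairing by replicate number was read from the deviations of the arrays and not from the labels. With ICRF-193 each treated array matched the vehicle of its own number best (correlations 0.38, 0.225 and 0.382). With Top2b shRNA (0.448, 0.385 and 0.35) replicate 2 matched a control of another number best. Outside ICRF-193 no comparison examined had every array match its own number best. Numbers of the shRNA groups also mark the set of arrays. No arrays held identical values (highest correlation 0.9985). Alternatives were the normalization, probe set choice, dim-gene filter, blocks and leaving out arrays.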

Additional observations from a re-analysis of the deposited data

Results flagged for a closer look

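In the vehicle group of topotecan at 1 µM, replicate 4 lay far below the other 5 arrays for 5 members. This was out of 70 checks of a member in a group of 6, where chance alone marks about 1 in 20 groups. The checks share the same arrays and are not independent. All 5 marks fell on this 1 array, so they are not 5 separate results. Kcna1 read 7.03 there against 7.53 to 7.78 in the others. Kcnc1 read 6.21 against 6.89 to 7.05. Kcnma1 read 9.20 against 9.73 to 9.88. Kcnip1 read 7.21 against 7.65 to 7.75. Kcnip2 read 5.40 against 5.93 to 6.22. Without that array 33 of 35 members and 5893 of all 13308 genes were called, against 29 members and 5207 genes with all arrays.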

How the results depend on the processing

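Leaving out 1 array at a time gave these ranges of members called: topotecan at 300 nM 2 to 9 (8 with all arrays), ICRF-193 7 to 15 (11), their difference 2 to 12 (7), topotecan at 1 µM 28 to 33 (29), irinotecan 18 to 21 (22), the dose slope 2 to 8 (6), Top1 shRNA 3 to 19 (15), Top2b shRNA 0 to 4 (3) and the direct shRNA comparison 0 to 0 (0). Calls over all genes moved as well, in the same order. The first 5 ranges were 90 to 498 (480), 885 to 2822 (2031), 136 to 1048 (393), 4600 to 5893 (5207) and 1780 to 3437 (3750). The others were 135 to 815 (390), 450 to 2486 (1579), 0 to 582 (414) and 0 to 0 (0). With 1 vehicle array hydrogen peroxide gave 6 to 24 members past 1.5-fold, paraquat 4 to 28, and the 24 h array 13 and washout 0. Without the filter on dim genes ICRF-193 gave 7 (1286 over all genes), Top1 shRNA 6 (614) and Top2b shRNA 0 (0). The mean of probe sets gave 4 (327) for the difference of drugs. The slope over log10 dose gave 1 (1.92% of all genes), and the slope without the 1000 nM array and vehicles 1 and 2 gave 11 (9.98%). With the array set as a block Top1 shRNA gave 23 (28.4%) and Top2b shRNA 10 (14.9%). With replicates 2 and 3 only they gave 29 (44.7%) and 13 (22.6%), and the direct comparison 9 (14.2%). The restriction to replicates 2 and 3 and the slope without 3 arrays were chosen after seeing the data. With the replicate block topotecan at 300 nM gave 0 calls (0.00916% of all genes), the difference of drugs 3 (1.05%) and ICRF-193 15 (26.5%). Topotecan at 1 µM gave 28 (31.8%), irinotecan 20 (18.8%), Top1 shRNA 18 (23.5%), Top2b shRNA 8 (10.2%) and the direct comparison 0 (0%). The numbers of topotecan and irinotecan did not pair the arrays. Those of both shRNAs also mark the set of arrays, since replicate 1 of each shRNA group lay on another level. By deviations, replicates 2 and 3 of Top1 shRNA and replicate 2 of Top2b shRNA matched a control of another number best. The sign of many members with the oxidants changed with the vehicle left out. Kcnq3 with hydrogen peroxide was one of them, at -0.54 without vehicle replicate 1 and 2.66 without replicate 2. The cause of these changes was not tested. Arrays of 1 treatment and dim genes limit what can be read.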
